A study of Homo sapiens with 8 samples.

Results

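A-498 is an established human kidney cancer cell line. A pair of lines derived from it carried the label ANXA4 knockout, and the line labelled KO-2 (given ANXA4 sgRNA-2) was compared with the line labelled KO-1 (given ANXA4 sgRNA-1). Each line was represented by 2 polyA RNA libraries, so the comparison used 4 of the 8 libraries collected. The other 4 came from 2 lines labelled as wild type controls, control line 1 (non-targeting sgRNA-1) and control line 2 (non-targeting sgRNA-2). Equal cell numbers of every line were plated, and RNA was taken from sub-confluent dishes 24 h later. Because each guide was carried by 1 line, and the labels do not say whether a line was a clone or a pool, the guide and the line cannot be told apart. Of 28395 genes in the table, 13627 had a value of 10 or more in at least 2 of the 4 libraries labelled as knockout and were tested. Values are normalised read counts, that is, reads per gene divided by a size factor for the library.

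Annexin A4 is a calcium-dependent phospholipid-binding protein that lies beneath membranes of secretory and absorptive epithelia, including the kidney. Guide RNAs direct a nuclease to a chosen site in a gene, and repair of the cut leaves small insertions or deletions. The mRNA can persist after such an edit, so its level does not report on the protein, which was not analysed here.

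ANXA4 was high in the line labelled KO-2. It read 236 and 234 in the libraries labelled KO-1 and 3433 and 4142 in those labelled KO-2. Control line 1 read 2821 and 3614 and control line 2 read 3858 and 6773. The libraries labelled KO-2 thus sat inside the control range, and both libraries labelled KO-1 sat far below it. The difference was 3.998 on the log2 scale (SE 0.25, limma adjusted p = 0.000149), a 16.1-fold ratio of line means. That ANXA4 was low in KO-1 alone was known when this comparison was chosen, so its p-value is descriptive. At the mRNA level the label knockout was therefore matched by low ANXA4 in KO-1 alone, and every direction given here is between lines that differ in this way.

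Among the genes most different between the lines were ADAM23, PODXL2, KCNIP1 and KRT75. The first 3 were near 0 in one of the lines, and KRT75 was above every control library in KO-2. The RefSeq promoters of these genes (GRCh38.p14, 250 bases before to 50 bases after the annotated start, 5′ to 3′ on the gene's strand) are shown with CpG dinucleotides in capitals. The genes were picked after the data were seen and do not stand for the other genes low in either line. The ADAM23 promoter lies at chr2:206443282-206443581 on the plus strand, PODXL2 at chr3:127628935-127629234 on the plus strand, KCNIP1 at chr5:170353237-170353536 on the plus strand and KRT75 at chr12:52434322-52434621 on the minus strand.
ADAM23: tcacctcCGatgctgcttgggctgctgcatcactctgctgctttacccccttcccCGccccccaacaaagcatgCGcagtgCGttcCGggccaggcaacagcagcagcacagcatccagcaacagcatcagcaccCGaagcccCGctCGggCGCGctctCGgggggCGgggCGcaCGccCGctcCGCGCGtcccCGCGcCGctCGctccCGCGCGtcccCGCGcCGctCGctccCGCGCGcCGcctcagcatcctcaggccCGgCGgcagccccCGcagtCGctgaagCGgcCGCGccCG
PODXL2: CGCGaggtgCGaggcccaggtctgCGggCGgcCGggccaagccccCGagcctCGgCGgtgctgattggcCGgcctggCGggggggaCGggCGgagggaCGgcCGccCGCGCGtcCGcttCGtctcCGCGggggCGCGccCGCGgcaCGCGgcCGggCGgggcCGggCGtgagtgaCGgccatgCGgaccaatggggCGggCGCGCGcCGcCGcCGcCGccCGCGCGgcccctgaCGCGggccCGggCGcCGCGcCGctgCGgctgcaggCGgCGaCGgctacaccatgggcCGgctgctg
KCNIP1: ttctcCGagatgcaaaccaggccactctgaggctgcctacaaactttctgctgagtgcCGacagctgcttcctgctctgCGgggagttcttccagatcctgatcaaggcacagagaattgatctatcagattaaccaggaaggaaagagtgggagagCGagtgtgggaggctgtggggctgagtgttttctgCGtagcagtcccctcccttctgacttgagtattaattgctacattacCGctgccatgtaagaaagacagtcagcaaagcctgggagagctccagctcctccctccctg
KRT75: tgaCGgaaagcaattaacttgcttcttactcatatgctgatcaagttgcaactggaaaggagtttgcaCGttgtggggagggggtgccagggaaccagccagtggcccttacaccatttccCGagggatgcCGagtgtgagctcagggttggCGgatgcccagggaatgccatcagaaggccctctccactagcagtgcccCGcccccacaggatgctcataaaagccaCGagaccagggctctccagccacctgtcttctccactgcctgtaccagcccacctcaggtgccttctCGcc
The ADAM23 and PODXL2 windows held 41 and 57 CpG, and the KCNIP1 and KRT75 windows held 6 and 8. The median over the 10767 tested genes with a listed promoter was 26, and 87.7% of them held at least 10. Other genes near 0 in one line fell on both sides of this median: among genes near 0 in KO-2, TLR4 held 8 CpG, FGF12 16 and PCDHAC1 27, and among genes near 0 in KO-1, CNN1 held 10 and MCAM 29. ANXA4, low in KO-1, held 44. DNA methylation was not measured, and these letters are a description of the sequence.

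Between the lines, 979 genes differed at an adjusted p under 0.05, which is 7.18% of those tested. Of these, 337 (2.47% of tested genes) were higher in the line labelled KO-2 and 642 (4.71%) were lower. At least a 2-fold difference was seen for 168 of the higher and 283 of the lower genes. Protein-coding genes made up 943 of the calls and lncRNA genes 28. The libraries of one line did not overlap those of the other for any of the 979 genes, and over all tested genes KO-2 lay entirely above KO-1 in 25.8% and entirely below it in 27.3%. By the same test the control lines differed from each other at 269 genes (1.97%), and 66 genes were called in both comparisons, 6.74% of the calls between the knockout-labelled lines and 24.5% of those between the controls. The median absolute log2 difference was 0.29 between the knockout-labelled lines and 0.20 between the controls. Whatever their p, 920 and 650 genes, respectively, differed by at least 2-fold. The filter on values used the knockout-labelled libraries only. It kept genes present in a single knockout-labelled line and dropped genes present in a control line alone. The numbers for the knockout-labelled lines and for the controls are therefore not on an equal footing.

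The number of calls depended strongly on single libraries. Without KO-1 replicate 1 it was 160, without KO-1 replicate 2 it was 87 and without KO-2 replicate 2 it was 347, while without KO-2 replicate 1 it was 1011. All 8 libraries share one estimate of the spread, and leaving out a library of control line 1 gave 507 or 508, against 851 or 881 for control line 2. A fit that blocked on the replicate number called 3444 of the 13627 tested genes (1479 higher, 1965 lower), among them all 979. Counts given below for gene lists with the replicate block stand beside these totals. The shares of 7.18%, 2.47% and 4.71% belong to the fit without the block. Over all 13627 tested genes, 3348 had an unadjusted limma p under 0.05. EdgeR called 950 (330 higher, 620 lower) and DESeq2 1399 (522 higher, 877 lower). List counts given below by these measures stand beside those totals. Those of the 979 that an alternative tested (887 with the filter at 50) kept their direction, except that subtracting the median of neighbouring genes left 968 in the same direction.

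The deepest falls in the line labelled KO-2 included surface and matrix genes that both control lines and KO-1 expressed. ADAM23 encodes a membrane protein of the disintegrin family that lacks protease activity. It had 421 and 383 normalised counts in KO-1, 0 and 0 in KO-2, and between 218 and 281 in the 4 control libraries. All 4 control libraries and both KO-1 libraries were far from the KO-2 libraries, in which no read was counted. Against a limit of 3 reads per library the difference was at least 119.6-fold (limma adjusted p = 5.35e-07). Genes near 0 in a line, here and below, passed the filter on values through the other line alone. ADAM23, KCNIP1 and KRT75 were also named when the comparison was chosen. The p-values of these genes are therefore descriptive. PODXL2, which encodes the sialomucin endoglycan, had 339.8 and 333 in KO-1 and 1 read in each KO-2 library, with 469 to 794 in the controls. The ratio of levels was 302, with a 95% exact counting interval of 83.4 to 2500, and the adjusted p was 5.35e-07. In bulk RNA a lower level in every cell and a smaller share of expressing cells cannot be told apart.

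Other genes were at or near 0 in KO-2 alone. LAMC3, a laminin gamma chain of basement membranes, had 64.2 and 42.5 in KO-1, 0 reads in both KO-2 libraries and 37.9 to 147 in controls, a difference of at least 15.9-fold (adjusted p = 0.000153). FGF12, an intracellular fibroblast growth factor homologue that binds sodium channels, had 80.6 and 70.5 in KO-1 and 1 read in each KO-2 library, with 39.5 to 61.4 in controls. Its ratio of levels was 68.5 (95% exact interval 18.7 to 570, adjusted p = 0.000163). TLR4, the lipopolysaccharide receptor, had 39.9 and 61.2 in KO-1 against 0 and 1 read in KO-2, with 32.2 to 71.4 in controls (ratio 88.1, exact interval 15.5 to 3510, adjusted p = 0.00107). For each of these 3 genes the controls resembled KO-1 and the KO-2 libraries stood apart. PCDHAC1, a clustered protocadherin, had 83.0 and 57.0 in KO-1, 3.10 and 1.21 in KO-2 and 1.04 to 16.4 in controls, so here KO-1 was the line that stood above the rest. PCDHAC1 shares exons with the other PCDHA transcripts, so the assignment of its reads is uncertain.

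Among the genes that fell without reaching 0, PLEK2, a pleckstrin-family protein of the actin cytoskeleton, had 214 and 294 in KO-1, 5.17 and 3.62 in KO-2 and 200.5 to 348 in controls. It fell by 5.56 on the log2(value + 1) scale (SE 0.27, adjusted p = 3.74e-05). RBBP7, a histone-binding subunit of several chromatin complexes encoded on chromosome X, had 1862 and 1930 in KO-1, 192 and 134 in KO-2 and 1867 to 2015 in the controls. All 6 libraries other than those labelled KO-2 lay within a narrow band, and RBBP7 fell by 3.55 in KO-2 (SE 0.17, adjusted p = 3.74e-05). The sialyltransferase gene ST6GAL1 had 193 and 143 in KO-1 and 3.10 and 12.1 in KO-2, with 140.5 to 188 in controls. GALNT14, which starts mucin-type glycosylation, fell from 90.8 and 121 to 10.3 and 4.83, and the controls differed from each other, at 534 and 548 in line 1 and 45.6 and 44.2 in line 2. NPTX2, a neuronal pentraxin, had 125 and 174 in KO-1 and 9.31 and 30.2 in KO-2, below the controls' 250.4 to 437. NPTX2 lost its call without either KO-1 library.

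**Figure D1:**
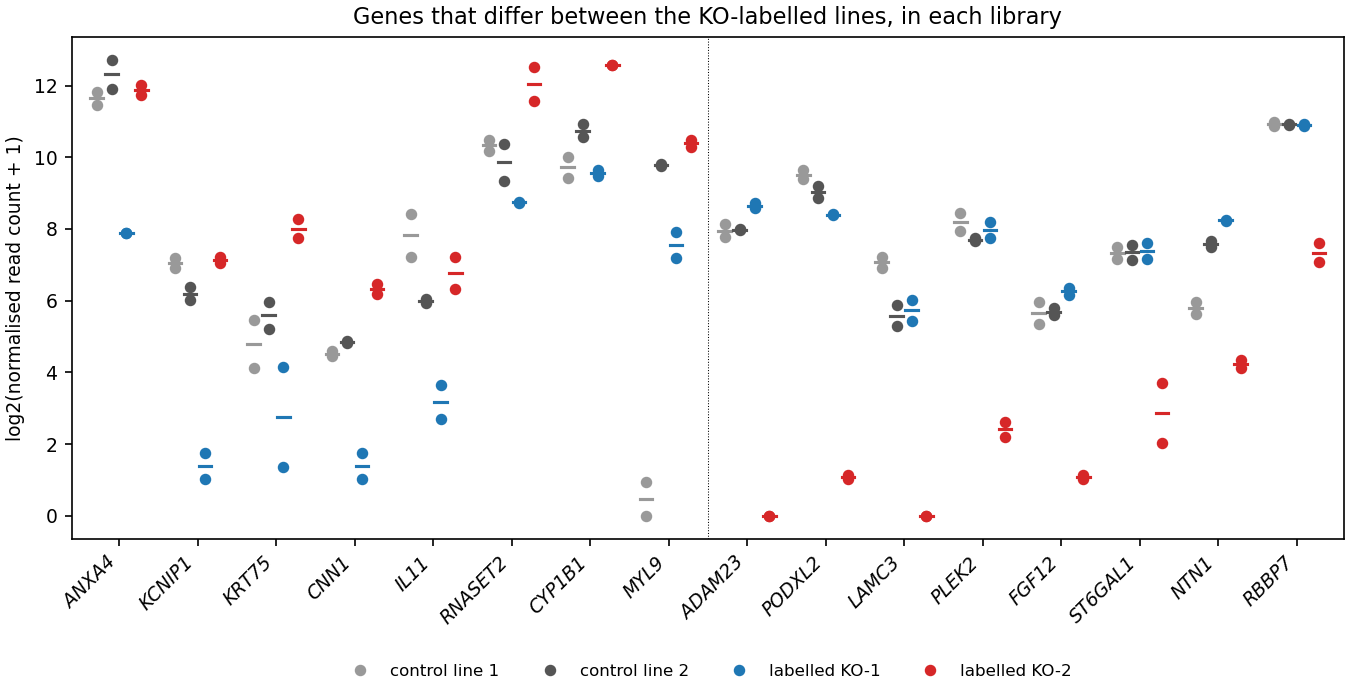
Log2(normalised read count + 1) in each of the 8 libraries for 16 genes that differed between the knockout-labelled lines; dots are libraries, bars are line means, and the dotted line separates genes higher in KO-2 (left) from genes lower in KO-2 (right). ANXA4 is low in the KO-1 libraries only, whereas ADAM23, LAMC3 and RBBP7 are low in the KO-2 libraries only, and MYL9 is at 0 or under 1 in control line 1.

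Several of the genes that rose furthest in the line labelled KO-2 were low in KO-1 relative to the controls too. KCNIP1, a calcium-binding partner of Kv4 potassium channels, had 2.35 and 1.04 in KO-1, 149 and 130.4 in KO-2 and 63.5 to 145 in controls. The KO-1 values came from 3 reads and 1 read, and the ratio of levels was 78.7 (95% exact counting interval 30.3 to 291, adjusted p = 7.83e-05). KCNMB1 and an antisense RNA overlap KCNIP1, and the strand setting of the counting is not given in the sources used here. GATA5, a zinc-finger transcription factor of endoderm and heart, had no read in KO-1 and 37.2 and 19.3 in KO-2, at least 10.4-fold, with 13.5 to 55.1 in controls. IL11, a cytokine of the interleukin-6 family, had 5.48 and 11.4 in KO-1, 78.6 and 149 in KO-2 and 60.2 to 339 in controls (log2 difference 3.60, SE 0.48, adjusted p = 0.00577). For KCNIP1, GATA5 and IL11 every control library lay nearer to KO-2 than to KO-1. MCAM, the melanoma cell adhesion molecule, had 1.57 and 3.11 in KO-1 and 42.4 and 65.2 in KO-2, between the 76.3 and 119.6 of control line 1 and the 18.9 and 9.06 of control line 2.

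Other genes rose above every control library in KO-2. KRT75, a hair-follicle type II keratin, had 1.57 and 16.6 in KO-1, 212 and 308 in KO-2 and 16.6 to 61.2 in controls (log2 difference 5.25, SE 0.81, adjusted p = 0.00981). For KRT75, KO-1 replicate 2 was level with the lowest control library and KO-1 replicate 1 lay below it. CYP1B1, a cytochrome P450 of steroid and xenobiotic oxidation, had 807 and 709 in KO-1, 6041 and 6142 in KO-2 and 689.5 to 1936 in controls. It rose by 3.01 (SE 0.20, adjusted p = 0.000205), and both KO-2 libraries exceeded every other library. RNASET2, a lysosomal ribonuclease, had 434 and 422 in KO-1 and 3032 and 5867 in KO-2, against 646 to 1441 in controls. ACSM5, a mitochondrial acyl-CoA synthetase, had 5.48 and 4.15 in KO-1 and 52.7 and 50.7 in KO-2, above the controls' 10.4 to 20.6. PRTFDC1, a homologue of the purine salvage enzyme HPRT1, was below every control library in KO-1 and between the control lines in KO-2, as MCAM was. It had 14.9 and 7.26 in KO-1 and 144 and 123 in KO-2, while control line 1 had 408 and 362 and control line 2 had 47.3 and 35.1. STEAP1B-AS1, an antisense RNA, rose from 8.61 and 30.1 to 133 and 151, and lost its call without KO-1 replicate 1 or KO-2 replicate 2.

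The control libraries show on which side each difference fell. For 362 of the 979 genes (37.0%) all 4 control libraries were nearer to KO-1, and 291 of these were lower in KO-2. For 217 genes (22.2%) all 4 were nearer to KO-2, the pattern of ANXA4, with 117 higher and 100 lower in KO-2. The remaining 400 (40.9%) had control libraries on both sides. Over all tested genes the shares were 22.1%, 19.5% and 58.5%. Called genes with the controls on the side of KO-1 were thus 71 higher and 291 lower in KO-2. The controls did not enter the difference itself, only the estimate of the spread.

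Several genes of actin-based contractility were higher in the line labelled KO-2. Serum response factor (SRF) and its cofactors drive smooth muscle and cytoskeletal genes such as calponins, tropomyosins and myosin light chains. Of 23 tested members of the contractile and SRF target list, 7 were higher in KO-2 (30.4%, against 2.47% of all tested genes) and 1 was lower, with a median log2 difference of 0.37 against -0.01 over all tested genes. CNN1, calponin 1, had 2.35 and 1.04 in KO-1, 87.9 and 71.2 in KO-2 and 20.8 to 28.4 in controls. The ratio was 44.9, with a 95% exact interval of 17.2 to 167 (adjusted p = 0.000423). MYL9, the regulatory myosin light chain, had 146 and 241 in KO-1, 1251 and 1434 in KO-2, and control line 2 had 862 and 903 where control line 1 had 0.92 and 0. The control lines thus differed in MYL9 by more than the knockout-labelled lines did, and MYL9 was not called when the pseudocount was 0.1.

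The other rises in this list were smaller. TGFB1I1, the focal adhesion adaptor Hic-5, had 397 and 409 in KO-1 and 976 and 961 in KO-2 (log2 difference 1.26, SE 0.14, adjusted p = 0.00302), with 705 to 808 in controls. TPM1, a tropomyosin, had 9105 and 8949 in KO-1 and 17230 and 18270 in KO-2, with 10530 to 15720 in controls. SMTN (smoothelin) rose by 1.01, FHL1 by 0.81 and CNN2 (calponin 2) by 0.60 on the log2 scale. VCL, the adhesion protein vinculin, fell by 0.60 (SE 0.14, adjusted p = 0.0418). The smooth muscle genes ACTA2 and TAGLN were not called without a block, ACTA2 with 143 and 126 in KO-1 and 293 and 174 in KO-2 (adjusted p = 0.126, or 0.0165 with the replicate block) and TAGLN with 25.8 and 14.5 against 40.3 and 67.6 (adjusted p = 0.0878, or 0.0245 with the replicate block). The 7 rises lay on 6 chromosomes, counting 19 for both calponins. Leaving out either KO-1 library reduced the higher members to 3 and leaving out KO-2 replicate 2 reduced them to 4, the replicate block gave 10 higher and 1 lower, and subtracting the local median of neighbouring genes gave 6 higher and none lower. The CArG box, the element that SRF binds, was searched for on both strands of the RefSeq promoter windows. It was present in 6 of the 20 listed promoters of this list (1 of 6 among higher members, CNN2, and 5 of 13 among uncalled members) and in 1.05% of the promoters of all tested genes. Since the list was drawn up from SRF targets, its share against all tested genes does not bear on these lines.

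Among integrin genes the calls were falls. Integrins are alpha-beta heterodimers that bind extracellular matrix, and the αv subunit pairs with several beta chains including β3 and β5. Of 20 tested integrin genes, 6 were lower in KO-2 (30.0%, against 4.71% of all tested genes), none was higher (0 also by edgeR and DESeq2, and 0 at an unadjusted limma p under 0.05), and the median log2 difference was -0.36. ITGB5 had 5747 and 5425 in KO-1, 1947 and 1752 in KO-2 and 5000 to 7386 in controls, and fell by 1.60 (SE 0.12, adjusted p = 0.000461). ITGA6, a laminin receptor subunit, had 1638 and 2340 in KO-1, 632 and 645 in KO-2 and 1149 to 1541 in controls, and fell by 1.61 (SE 0.17, adjusted p = 0.00297). ITGAV had 11170 and 12860 in KO-1 and 5966 and 6702 in KO-2 (adjusted p = 0.00928). ITGB3 had 4230 and 7340 against 2892 and 2332, with 6734 to 8164 in controls. ITGA4 had 639 and 556 against 324 and 297, and ITGA1, a collagen receptor subunit, had 503 and 633 against 283 and 327. ITGB1, the shared partner of many alpha subunits, had 23240 and 27670 in KO-1 and 18480 and 22450 in KO-2 and was not called (adjusted p = 0.279).

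Of the 6 lower integrins, 4 were on chromosomes where most genes were lower in KO-2, namely ITGA4, ITGA6 and ITGAV on chromosome 2 and ITGB5 on chromosome 3. With the local median subtracted 5 integrins were still lower, and with the replicate block 8 were lower and 1 higher. Leaving out single libraries gave between 2 and 6 lower members, the fewest without KO-1 replicate 2.

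Matrix and protease genes went both ways. FN1, fibronectin, had 794 and 896 in KO-1 and 6744 and 5270 in KO-2, a log2 difference of 2.82 (SE 0.17, adjusted p = 0.000101). The control lines lay outside both values, at 18000 and 20160 in line 1 and 521 and 434 in line 2. POSTN, periostin, had 74.4 and 71.6 in KO-1 and 334 and 466 in KO-2, again between control line 1 (2073 and 1969) and control line 2 (63.7 and 34.0). COL1A1 rose from 177 and 195 to 383 and 511, below every control library (548 to 1408). LOXL2, a lysyl oxidase that cross-links collagen, rose by 0.76 (SE 0.19, adjusted p = 0.0448) and lost its call with the local median subtracted. LAMA4 rose from 1.57 and 10.4 to 23.8 and 33.8, while control line 1 had 1185 and 1203 and control line 2 had 57.6 and 75.9, and LAMA1 fell by 0.65 (SE 0.13, adjusted p = 0.0233). In the list of mesenchymal genes 3 of 19 were higher and 1 was lower, NT5E, the ectonucleotidase CD73 (586 and 1030 in KO-1 against 174 and 338). In the list of 31 collagen and basement membrane genes 2 were higher and 1 was lower. The called shares of the mesenchymal and collagen lists were 21.1% and 9.68%, against 7.18% of all tested genes. With the replicate block these lists had 6 higher and 5 lower, and 4 higher and 5 lower. Among 31 ADAM, ADAMTS, MMP and TIMP genes 2 were higher (MMP19 and ADAMTS1) and 2 lower (ADAM23 and ADAM17), 12.9% in all. The replicate block gave 6 higher and 5 lower. ADAMTS1, on chromosome 21, lost its call with the local median subtracted. ADAM17, which sheds growth factor and cytokine precursors, had 1954 and 1976 in KO-1 and 940 and 821 in KO-2, on chromosome 2, and lost its call with the local median subtracted.

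Axon guidance ligands and receptors, which also steer endothelial and epithelial cell movement, included genes with large falls. Of 44 tested, 10 were lower (22.7%, against 4.71%) and 2 higher, with a median of -0.26. The ligand NTN1 (netrin-1) had 297.5 and 304 in KO-1, 16.6 and 19.3 in KO-2, with 48.7 and 61.4 for control line 1 and 178 and 203 for control line 2. It fell by 3.998 (SE 0.22, adjusted p = 7.83e-05), and the KO-2 libraries were the lowest and the KO-1 libraries the highest of the 8. SLIT2, the ligand of ROBO receptors, had 142.5 and 253 in KO-1, 31.0 and 74.8 in KO-2 and 187 to 339 in controls (adjusted p = 0.0373). SEMA3F fell from 730 and 904 to 336 and 256, SEMA4B from 9465 and 12930 to 5272 and 5863, and SEMA4C by 0.65 on the log2 scale. Among receptors, PLXNA1 had 2533 and 2697 in KO-1 and 1161 and 921 in KO-2, PLXND1 had 6751 and 6694 against 3109 and 3275, and NRP2, a co-receptor for semaphorins and VEGF, had 9777 and 11100 against 5073 and 4489. PLXNA2 fell by 1.24, and EPHA2 fell by 0.71. The 2 higher members were SEMA7A (229 and 191 in KO-1, 481 and 549 in KO-2) and EPHA4 (39.9 and 49.8 against 102 and 97.8).

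On chromosomes 2 and 3 lay 5 of the 10 lower members, SEMA3F, PLXNA1, NRP2, PLXND1 and SEMA4C. Subtracting the local median left 5 lower and 1 higher, the replicate block gave 18 lower and 4 higher, and leaving out KO-1 replicate 2 left 2 lower and none higher.

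The list of growth factor receptors and ligands around the EGFR, FGFR and MET families had 5 lower members and no higher one among 29 tested (17.2% lower, against 4.71% of all tested genes). By edgeR and DESeq2 none was higher either, and at an unadjusted limma p under 0.05 1 was. EGFR had 3732 and 3856 in KO-1, 2098 and 1206 in KO-2 and 1721 to 2845 in controls, so KO-1 was above every control and KO-2 overlapped them (adjusted p = 0.0447). Its ligand gene TGFA had 6603 and 9642 against 2540 and 3480, with 4246 to 7491 in controls, and NRG4, a ligand of ERBB4, had 119 and 72.6 against 22.8 and 39.8. MST1R, the receptor of macrophage-stimulating protein, had 379 and 466 in KO-1, 175 and 156 in KO-2 and 116 to 269.6 in controls, and IGF2R, the mannose 6-phosphate receptor that also binds IGF2, fell by 0.85. MET itself had 15330 and 14670 in KO-1 and 10500 and 10890 in KO-2 and missed the threshold (adjusted p = 0.057, or 0.00754 with the replicate block). Subtracting the local median left 3 lower, the replicate block gave 11 lower and 4 higher, and none was called without KO-1 replicate 2.

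In the TGF-beta and BMP pathway 4 of 38 were lower (10.5%, against 4.71% of all tested genes) and 1 was higher (2.63%, against 2.47%), with a median of -0.34. The replicate block gave 13 lower and 2 higher, and no member was called without KO-1 replicate 2. The ligand BMP2 rose from 88.5 and 86.1 to 221 and 159, and the ligand BMP6 fell from 83.8 and 110.0 to 30.0 and 29.0, with 101 to 117 in controls (adjusted p = 0.00698). The receptors TGFBR1 (756 and 1039 against 413 and 515.5) and BMPR2 (1186 and 975 against 688 and 665) and the SMAD repressor SKIL (1052 and 1264 against 503 and 659) fell. TGFBR1, BMPR2 and SKIL lie on chromosomes 9, 2 and 3, and with the local median subtracted 1 member of the list was lower and none higher. Among 24 YAP and TEAD targets 1 was higher (DLC1) and 2 were lower (NT5E and PTPN14), 12.5% against 7.18% of all tested genes. The replicate block gave 5 higher and 4 lower. With the local median subtracted 1 was lower and none higher.

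Kidney and epithelial genes also changed in both directions. HNF4A, a transcription factor of proximal tubule and liver, had 78.3 and 41.5 in KO-1, 311 and 187 in KO-2 and 19.8 to 31.3 in controls, and rose by 2.06 (SE 0.39, adjusted p = 0.0201). It lies on chromosome 20, lost its call with the local median subtracted, and also without KO-1 replicate 2 or KO-2 replicate 1. GGT1, a brush border gamma-glutamyltransferase, had 50.9 and 49.8 in KO-1, 209 and 182 in KO-2 and 41.4 to 52.1 in controls. It rose by 1.93 (SE 0.22, adjusted p = 0.00369), and the KO-1 libraries fell within the control range. CDH16, the kidney-specific cadherin, rose from 43.1 and 36.3 to 131 and 79.7. The urate transporter SLC2A9 fell from 15.7 and 25.9 to 6.21 and 4.83, a call that neither edgeR nor DESeq2 made. SLC2A9 was called in 5 of the 20 alternatives that gave it a value. Of 20 epithelial and kidney transcription factors 1 was higher (HNF4A) and 1 lower (KLF4), and of 17 tubule transporter and brush border genes 2 were higher and 1 was lower, and the replicate block gave 3 and 2 in the first list and 4 and 4 in the second. Among 8 keratins 2 were higher (KRT75 and KRT10), while KRT8, KRT18 and KRT7 were not called and KRT19 was called lower with the replicate block (adjusted p = 0.0361) but not without it (0.116). Of 20 epithelial junction genes 1 was higher (CD24) and 2 lower, the desmosomal DSP (1597 and 1279 in KO-1, 884 and 695 in KO-2) and F11R, with a list median of -0.52 and 15 of 20 below 0. The replicate block gave 9 lower and 3 higher junction genes, and over all 13627 tested genes it gave 1965 lower and 1479 higher. Without the block the called shares of these 4 lists were 10%, 17.6%, 25% and 15%, against 7.18% of all tested genes.

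No other annexin rose or fell with ANXA4 in a way that passed the test, apart from ANXA1. ANXA1, on chromosome 9, had 21590 and 19340 in KO-1, 13440 and 14270 in KO-2 and 14980 to 16010 in controls, and fell by 0.56 (SE 0.14, adjusted p = 0.0453). It was not called with the local median subtracted or when any 1 of the 8 libraries was left out. ANXA2, with 34500 and 36210 in KO-1 and 33560 and 35950 in KO-2, ANXA3 (3839 and 3802 against 3771 and 3713), ANXA5 (15840 and 19310 against 18930 and 25920) and ANXA7 (3553 and 3590 against 3881 and 4252) were not called. ANXA6, ANXA9, ANXA10 and ANXA11 were not called either, with log2 differences of -0.16, 0.09, 0.46 and -0.05. In all, 9 of 11 other annexins were tested, and 1 was called (11.1%, against 7.18% of all tested genes).

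Among cytokine and interferon genes the calls went both ways. Of 25 tested cytokines and chemokines 1 was higher (IL11) and 2 were lower, 12% against 7.18% of all tested genes, and the replicate block gave 6 each way. IL1B had 29.0 and 43.6 in KO-1 against 3 reads and 1 read in KO-2 (ratio 15.8, 95% exact interval 5.94 to 59.5), and CSF1, the macrophage colony-stimulating factor, had 12660 and 12830 against 6534 and 5480, with 7262 to 10100 in controls. Of 36 interferon-stimulated genes 2 were higher (TRIM22 and XAF1) and 2 lower (PARP14 and DTX3L, on chromosome 3 and both without a call once the local median was subtracted), 11.1% in all, and the replicate block gave 5 higher and 8 lower. In the list of cholesterol synthesis and SREBP target genes, SREBF2, the transcription factor of the pathway, had 1338 and 1445 against 702 and 593 (adjusted p = 0.00915), and SQLE fell by 0.70. INSIG1, which retains that factor in the endoplasmic reticulum, rose from 819 and 1139 to 1797 and 2074. Among 35 HIF targets and glycolysis genes 4 were lower and none higher (11.4% lower against 4.71% of all tested genes), including NDRG1 (9575 and 12770 against 5890 and 3717), PFKFB3, KDM3A and SLC2A1 (11980 and 13050 against 7676 and 8110). The replicate block called 5 of them higher and 9 lower, edgeR and DESeq2 called none higher, and 4 were higher at an unadjusted limma p under 0.05. Leaving out KO-1 replicate 1 gave 1 higher and none lower, KO-1 replicate 2 none either way, and KO-2 replicate 1 gave 1 higher and 3 lower.

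The potassium channel list had KCNIP1 higher and KCNS3, KCNAB2 and KCNK1 lower among 22 tested (18.2%, against 7.18% of all tested genes). It had 3 higher and 6 lower with the replicate block. Of 28 unfolded protein response and ATF4 target genes 22 lay below 0, with a median of -0.39. Yet 1 was called (3.57%), DDIT4 (5780 and 6026 against 3627 and 3804), and 12 were lower with the replicate block. Of 42 cell cycle genes 1 was called (2.38%), the mitotic kinase gene BUB1, which is on chromosome 2 and was not called with the local median subtracted. The replicate block gave 3 higher and 5 lower cell cycle genes, and over all 13627 tested genes it gave 1479 higher and 1965 lower. By limma no member of 22 NF-kB subunit and feedback genes, 9 HLA class I presentation genes, 28 p53 targets or 24 immediate early genes passed the adjusted threshold. At an unadjusted limma p under 0.05 these lists had 4, 1, 4 and 2 members, against 3348 of all 13627 tested genes. With the replicate block they had 4, 2, 3 and 2 called members, against 3444. EdgeR called 0 in each, against 950 over all tested genes. By DESeq2 the calls were 2, 0, 1 and 0, against 1399.

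**Figure D2:**
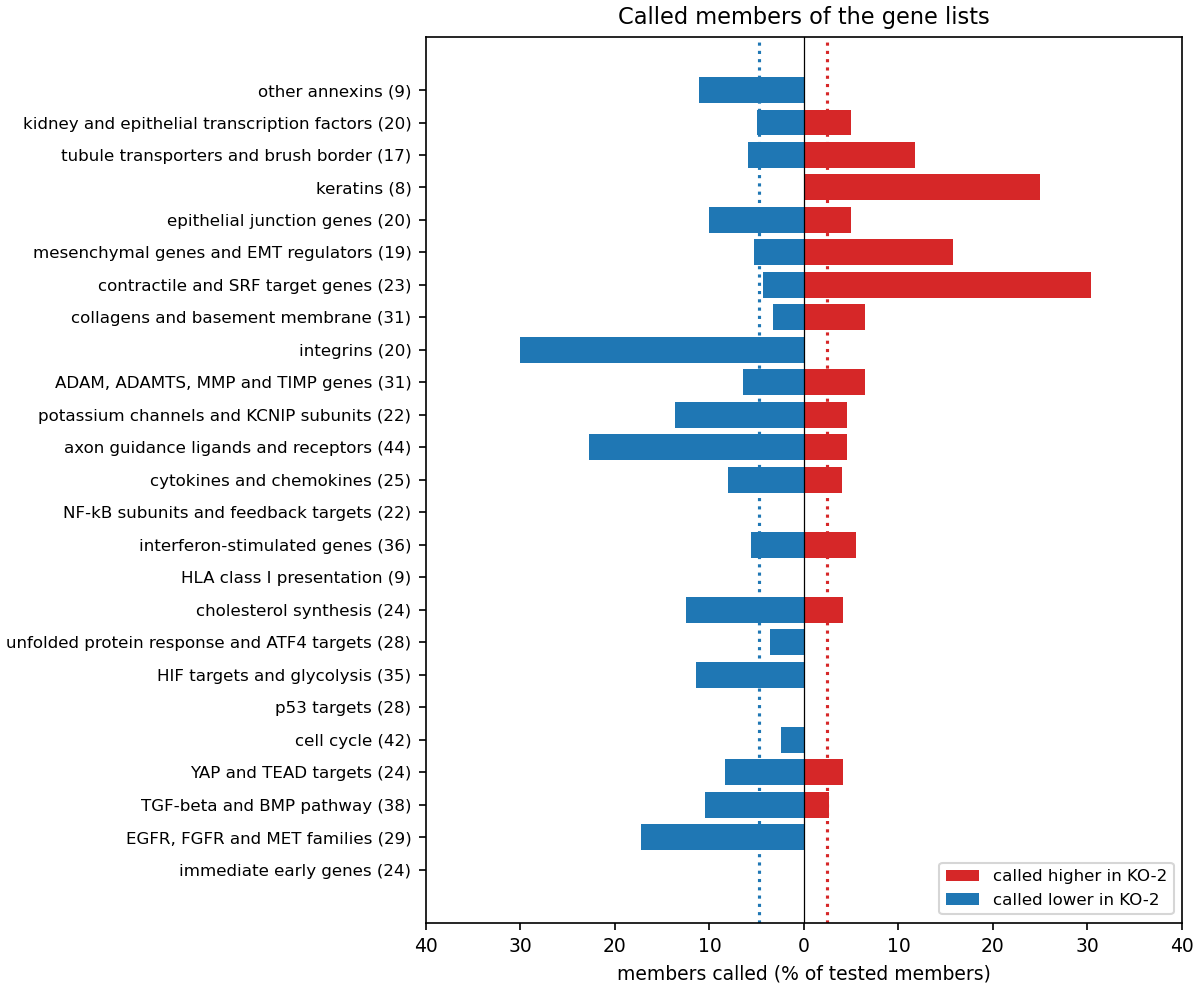
Percent of the tested members of each gene list (number tested in parentheses) that were called higher in the line labelled KO-2 (red, to the right) or lower (blue, to the left). Dotted lines mark the shares over all tested genes, 2.47% higher and 4.71% lower; the contractile list reaches 30.4% higher and the integrins 30.0% lower.

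The differences were unevenly placed along the genome. Chromosomes 2, 3 and 9 held 337 of the 642 lower genes (52.5%) but 16.7% of tested genes, and with chromosome 8 added they held 379 (59.0%) against 20.3%. Chromosomes 20 and 21 held 94 of the 337 higher genes (27.9%) but 3.76% of tested genes. The median log2 difference over all tested genes of a chromosome was -0.26 on chromosome 2, -0.29 on chromosome 3, -0.40 on chromosome 9 and -0.19 on chromosome 8, and it was 0.44 on chromosome 20 and 0.39 on chromosome 21. On chromosome 9, 85.9% of the 583 tested genes lay below 0. These medians had the same sign in replicate 1 alone and in replicate 2 alone, and on the other autosomes and X the medians were between -0.07 and 0.14. The DNA copy number was not measured, and its part in these medians was not tested.

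**Figure D3:**
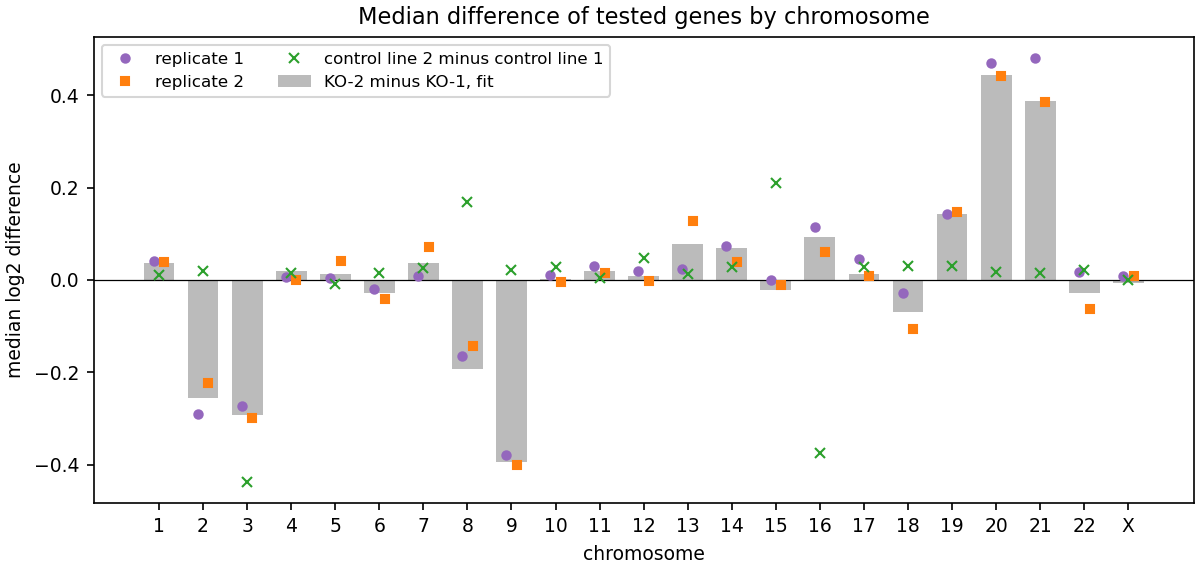
Median log2 difference of the tested genes of each chromosome between the line labelled KO-2 and the line labelled KO-1 (grey bars), with the same from replicate 1 alone (circles) and replicate 2 alone (squares) and, as crosses, control line 2 minus control line 1. Chromosomes 2, 3, 8 and 9 lie below 0 and 20 and 21 above it in both replicates, and the controls differ from each other on 3, 8, 15 and 16.

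Set against the mean of the controls, the shifts belonged to different lines. On chromosomes 20 and 21 the line labelled KO-1 was low, with medians of -0.39 and -0.40, while KO-2 was at 0.04 and 0.04. On chromosomes 2 and 9 KO-2 was low, at -0.26 and -0.38, while KO-1 was at 0.01 and 0.02. On chromosome 3 KO-1 was at -0.21 and KO-2 at -0.47, but the control lines differed there by -0.44 from each other, so the reference itself was mixed. On chromosome 8 KO-1 was at 0.30 and KO-2 at 0.14, and the control lines differed by 0.17, so the reference was mixed there too.

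Some of these shifts stopped within a chromosome. Genes with a mean of at least 50 over the 8 libraries were taken in order in windows of about 40, a choice made after the chromosome medians were seen. On chromosome 2 the first 17 of 20 windows, from SH3YL1 to XRCC5, had medians between -0.46 and -0.24, and the last 3 had 0.20, -0.01 and 0.12. On chromosome 3 the first 8 of 16 windows, from CNTN6 to LNP1, lay between -0.17 and 0.06, and the last 8, from TMEM45A to LMLN, between -0.67 and -0.51. The first 3 of 10 windows on chromosome 8 lay between 0.21 and 0.24 and the last 7 between -0.41 and -0.19. In those first 3 windows the control lines differed from each other by 0.52 to 0.58. They differed by 0.40 in window 4 and by -0.11 to 0.11 in windows 5 to 10. All 12 windows of chromosome 9 lay between -0.56 and -0.23, all 8 of chromosome 20 lay between 0.26 and 0.64, and all 3 of chromosome 21 between 0.35 and 0.43. Over the genome 53 of 282 windows were beyond 0.25 in either direction.

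**Figure D4:**
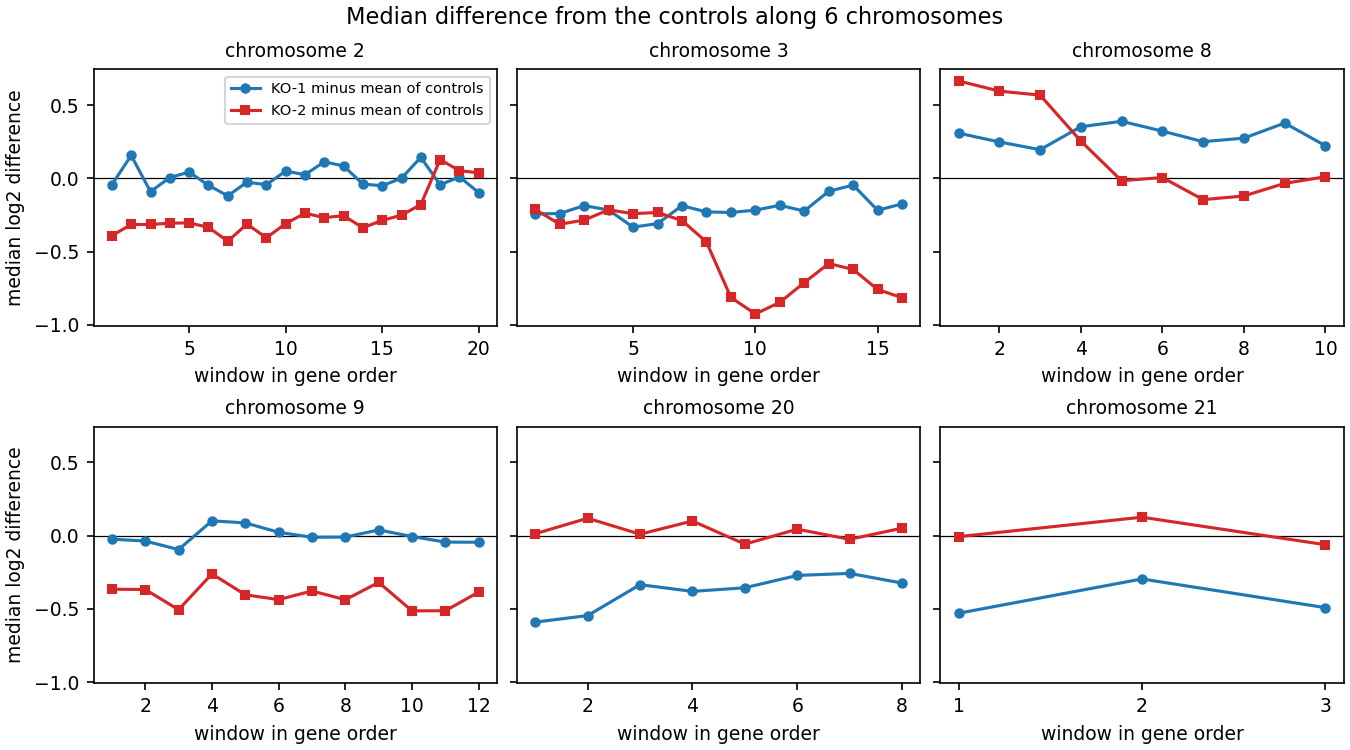
Median log2 difference from the mean of the control libraries in successive windows of about 40 genes along 6 chromosomes, for the line labelled KO-1 (blue circles) and the line labelled KO-2 (red squares). Relative to that mean, KO-2 drops part way along chromosomes 3 and 8 and returns at the end of chromosome 2, and KO-1 lies below 0 along all of chromosomes 20 and 21. The control lines themselves differ from each other along chromosome 3 and the first part of chromosome 8.

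When the median of 40 tested neighbours on each side was subtracted from every gene, 446 genes were called, 178 higher and 268 lower, and 409 of them were among the 979. On chromosome 9 the calls became 10 higher and 12 lower, where 6 higher and 89 lower had been called before, and on chromosome 20 they became 8 higher and 7 lower, from 71 higher and 3 lower. Some single genes with large differences kept their calls, while HNF4A, which rose by 2.06, lost its call. ADAM23, PODXL2, PLEK2, RBBP7, NTN1, KCNIP1, CNN1, ANXA4, CYP1B1 and FN1 were called in all 21 alternatives, including this one. ADAM23, PODXL2, PLEK2, KCNIP1 and CNN1 passed the filter through their higher line alone, so their repeated calls give no independent support. Of the 72 called genes that the naming rule picked, 25 were called in every alternative that gave a value. Beside the 10 genes above these were FGF12, GALNT14, GATA5, GGT1, IL11, ITGA6, ITGB5, KRT75, LAMC3, MCAM, POSTN, PRTFDC1, RNASET2, ST6GAL1 and TLR4. Without KO-1 replicate 1 or 2, 34 and 28 of the 72 were called, and without KO-2 replicate 1 or 2, 54 and 45.

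Library totals were 15784890 to 22631588 reads, with 22631588 and 17252207 in KO-1 and 16904423 and 15784890 in KO-2. Replicates of a line correlated at 0.9781 to 0.9877 across genes, more than with any library of another line (at most 0.9786 for KO-1 and 0.9723 for KO-2), and their counts differed by 19.3 to 74.4 times the sampling noise (chi-square per degree of freedom), so none was a repeat of another library. KO-2 replicate 2 had 13.8% of its reads on mitochondrial genes, against 6.40% in KO-2 replicate 1, 6.43% and 6.23% in KO-1 and 4.67% to 9.05% in controls. The median log2 difference of the 24 tested mitochondrial genes was -0.23 in replicate 1 and 1.04 in replicate 2. All 10 kidney cancer line markers were tested in the knockout-labelled libraries. The 1 called was NNMT, higher in KO-2 (644 and 723 in KO-1, 1284 and 1583 in KO-2). This is 10%, against 7.18% of all tested genes. With the replicate block 4 of these markers were higher and 2 lower, against 1479 and 1965 of all tested genes. Under 10 normalised counts in all 4 libraries were 8 of 10 leukocyte markers (CD3E and LYZ at 0), 6 of 8 endothelial markers (CDH5, KDR and ERG at 0), 7 of 9 fibroblast markers (LUM, COL1A2 and COL3A1 at 0) and 3 of 7 neural markers (SOX10 and STMN2 at 0). The summed fibroblast markers were 257 and 274 in KO-1, 724 and 987 in KO-2 and 622 to 3410 in controls, nearly all of it from COL1A1 and POSTN.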

How the data were processed

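PolyA RNA of 8 A-498 libraries was sequenced; here the 2 libraries labelled KO-2 were set against the 2 labelled KO-1, with both control lines in the same fit. Per the submitters' processing notes, the authors used fastp 0.23.2, HISAT2 2.2.1, featureCounts 2.0.1, DESeq2 2.11.40.8 and the build hg38 (GRCh38); the annotation and strand setting are not given in the sources used here. The deposited table holds a normalised signal, gene counts divided by a size factor per library. Multiplied back, 100% of values came out whole (tolerance 0.01 reads), and these reads gave depths of 15784890 to 22631588 and entered edgeR 4.0.16 and DESeq2 1.42.0. Exact intervals of ratios, computed from them for genes with few reads, cover counting error only.

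Genes with a value of 10 or more in 2 of the 4 libraries were tested with limma 3.58.1 (R 4.3.3) on log2(value + 1), 1 mean per line, trended moderation, and Benjamini-Hochberg adjustment over 13627 genes. Differences on this scale are understated for low genes. Calls have an adjusted p under 0.05. The scripts were tested on simulated data. Nothing in the labels says that replicates are separate cultures, so p-values measure the spread between these libraries. Replicate numbers paired the libraries in the data: deviations of same-numbered libraries correlated at 0.294 to 0.521 in all 6 pairs of lines, above the 0.1 limit, so blocked values are given where they change a call or move a count of calls by over 1.5 times.

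Named genes were ANXA4, KRT75, KCNIP1 and ADAM23, the 12 largest rises and falls among called genes with a mean of at least 50 in the higher line and no overlap, the 2 largest calls each way in every list, all tested annexins, and up to 4 genes each way with at most 3 reads in both libraries of a line; further called list members were named after their values were seen. Members and lists were chosen with earlier results of these data known. Gene symbols, positions and promoters are RefSeq's (GRCh38.p14); 27745 of 28395 identifiers had a symbol. Alternatives were other pseudocounts, filters, scalings, tools, blocks, single libraries left out and centring by chromosome; centring by neighbours, the windows and the promoter comparison were chosen after seeing the data. A single named gene is not reported here.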

Additional observations from a re-analysis of the deposited data

How the results depend on the processing

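The difference in ANXA4 kept its direction and its call in all 21 alternatives. Its low level in KO-1 was known when the comparison was chosen, so these alternatives give it no independent support. The number of genes called between the knockout-labelled lines moved more. It was 423 (152 higher, 271 lower) with the 4 knockout-labelled libraries alone, 557 with the chromosome median subtracted (324 lower) and 446 (178 higher, 268 lower) with the median of 40 neighbours on each side subtracted. Leaving out 1 library gave 87 to 1011 genes, 45 to 352 of them higher and 42 to 659 lower. DESeq2 called 522 higher. No scaling or centring moved the share of higher calls by over 10 percentage points. With the replicate block the calls were 3444 (1479 higher, 1965 lower), and with the replicate block on the 4 libraries alone 2289 (901 higher, 1388 lower); the block removed no call of a named gene. Between the control lines the 269 calls became 1711 with the replicate block, 647 with DESeq2 and 42 to 390 when 1 library was left out. The share of called genes with all controls nearer KO-1 was 33.6% with the 4 libraries alone, 27.5% with the replicate block, 28.5% with the replicate block on the 4 libraries, 32.9% with DESeq2, 31.6% after centring by chromosome and 29.1% after centring by neighbours. The share with controls on both sides was 44.0%, 52.5%, 51.2%, 44.8%, 44.7% and 44.8% in the same order, and the share nearer KO-2 was 26.0% after centring by neighbours. Leaving out 1 library gave 35.0% to 49.3% nearer KO-1, 17.1% to 35.6% nearer KO-2 and 29.4% to 44.7% on both sides, and the cause was not tested. Leaving out 1 library gave -0.28 to 0.17 for ANXA11 (0.17 without KO-2 replicate 2), -0.075 to 0.024 for ANXA2 (0.01 without KO-1 replicate 2 and 0.024 without KO-2 replicate 1) and -0.44 to 0.61 for ANXA9 (-0.20 without KO-1 replicate 2 and -0.44 without KO-2 replicate 1), so each reversed there; none of these was called, and the cause was not tested. Of 72 called named genes, 28 were called without KO-1 replicate 2, 34 without KO-1 replicate 1, 45 without KO-2 replicate 2, 48 after centring by neighbours and 71 with edgeR. A line left with 1 library is assumed to vary like the others.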
